A study of Homo sapiens with 17 samples.

Results

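HLA-B, HLA-C, HLA-E, HLA-F and NLRC5 were followed in SW480 cells, a human colon cancer line with mutant p53 (mutp53), as the cells lost mutp53 and as they met tumour necrosis factor alpha (TNF-α). These genes were found by their symbols in the table of gene values, and they make up 5 of the 26457 genes listed there. All 5 were among the 14800 genes abundant enough to be tested. The mRNA-seq libraries form 4 groups of 2, A and B, which the study's methods call biological replicates and GEO's labels list as 1 sample a group. Control cells expressed an inducible short hairpin RNA against LacZ, and mutp53-depleted cells expressed one against p53. Doxycycline induced the hairpin in both lines and puromycin kept it in place, so the controls carried both drugs as well. Each line was harvested at 0 h or 16 h of treatment, with TNF-α at 12.5 ng/ml. Whether a line was 1 clone or a pool of cells is not given in the sources used here. The design asks how the response to chronic TNF-α depends on mutp53.

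HLA class I molecules sit on the surface of nearly all nucleated cells and show peptides from inside the cell to CD8 T cells. HLA-B and HLA-C are classical class I heavy chains, which differ widely between people and also serve as ligands for receptors on natural killer cells. HLA-E is a nonclassical heavy chain that mostly presents peptides cut from the leader sequences of other class I chains and is read by the NKG2A receptor. HLA-F is another nonclassical chain, with low surface levels in most cells. NLRC5 is a member of the NLR family that enters the nucleus and, with factors bound at the W/S, X1, X2 and Y boxes, activates class I promoters. Interferon and NF-κB signaling are well known inducers of the class I pathway.

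The promoters of HLA-B, HLA-C and HLA-F are shown because only these were available. They are the 3 of the 5 genes found in the RefSeq promoter table (GRCh38.p14), which spans 250 bases before to 50 after each gene's start. HLA-E and NLRC5 had no entry in it. The windows run from 185 to 51 bases before the start and are written 5′ to 3′ on the strand of the gene. They lie at chr6:31357230-31357364 (minus strand) for HLA-B, at chr6:31272143-31272277 (minus strand) for HLA-C and at chr6:29723249-29723383 (plus strand) for HLA-F. Capitals mark matches, on either strand, to the NF-κB consensus, the interferon response element core GAANNGAA, the X2 box core TGACG and the Y box CCAAT.
HLA-B: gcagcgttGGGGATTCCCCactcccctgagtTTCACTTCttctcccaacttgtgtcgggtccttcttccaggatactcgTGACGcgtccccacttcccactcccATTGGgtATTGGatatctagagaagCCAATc
HLA-C: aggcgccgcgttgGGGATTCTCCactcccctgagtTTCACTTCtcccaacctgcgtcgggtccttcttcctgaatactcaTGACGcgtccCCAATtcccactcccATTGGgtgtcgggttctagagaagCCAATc
HLA-F: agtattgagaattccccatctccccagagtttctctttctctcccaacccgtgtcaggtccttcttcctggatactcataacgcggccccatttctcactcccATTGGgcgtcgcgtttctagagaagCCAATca

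HLA-B and HLA-C held all 4 motifs, in the same order for the NF-κB, interferon and X2 matches. The Y box followed these, except that HLA-C had a further Y box match 192 bases before the start, outside the window shown. In HLA-B the NF-κB consensus began 177 and, overlapping itself, 176 bases before the start, the interferon response element core 154 bases before, and the X2 core 106 bases before. In HLA-C these matches began 172, 150 and 105 bases before the start. In HLA-F only the Y box was matched, 82 and 57 bases before the start. The STAT element TTCNNNGAA was matched in none of the 3. Among all 35116 promoters in the table, 5.91% held the NF-κB consensus, 19.0% the interferon core, 24.6% the X2 core, 34.6% the Y box and 7.66% the STAT element. Over the 250 bases before the start, HLA-B and HLA-C were 89.0% identical, HLA-B and HLA-F 79.8%, and HLA-C and HLA-F 78.2%. A match is a run of letters and not a measured binding site. A sequence that departs from the motif by a single letter is not marked, so a missed match does not show that a site is missing.

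The table gives hg19 positions. HLA-F (transcript NM_018950) lies on chr6:29691117-29694303 on the plus strand, HLA-E (NM_005516) on chr6:30457183-30461982 on the plus strand, HLA-C (NM_002117) on chr6:31236526-31239913 on the minus strand and HLA-B (NM_005514) on chr6:31321649-31324989 on the minus strand. NLRC5 (NM_032206) lies on chr16:57050986-57117436 on the plus strand. Values are reads over the exons of the whole gene, so they do not separate exons or isoforms. NLRC5 is listed at 1 place in the genome, whereas HLA-B is listed at 6 places and HLA-C, HLA-E and HLA-F at 7 places each. Only 838 genes in the table, or 3.17%, are listed at more than 1 place. The count does not say whether these places are separate genes or further versions of the same stretch in the genome build. The class I genes and their pseudogenes resemble each other closely, and how a read that matches several of them was counted is not given in the sources used here. A level for 1 HLA gene may therefore hold reads from another.

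The libraries held between 6108488 and 13809578 reads on genes, and in every group replicate A was the deeper of the pair. Levels are given as normalized reads, the authors' values scaled to the same total over genes in every library, and 1 read was worth between 0.67 and 1.52 of them. The 11 colon epithelial markers summed to between 42700 and 70700 normalized reads, led by keratins, although CDX1 was at 0 in every library and KRT20, CDH17 and LGALS4 were at most 8.64. That sum was 66200 to 70700 in the control libraries at 0 h and 42700 to 43900 in the mutp53-depleted libraries at 16 h, and its part in the results was not tested. The 8 leukocyte markers summed to between 15.1 and 37.7, with PTPRC, CD3D and MS4A1 at 0 in every library. Markers of other cells were low but moved with depletion. The 5 fibroblast markers summed to 39.2 to 39.4 in control and 160 to 176 in depleted libraries at 0 h, and to 28.5 to 31.9 and 57.0 to 62.9 at 16 h. The 4 endothelial markers summed to 6.06 to 7.26 and 21.9 to 28.8 at 0 h, and to 5.69 to 6.77 and 17.6 to 28.4 at 16 h. In the depleted libraries most of the fibroblast sum lay in COL1A1 and PDGFRB, and most of the endothelial sum in VWF. Over all libraries COL1A1 reached 106, PDGFRB 69.9 and VWF 28.8. DCN and KDR were at 0 in every library. COL1A2 was at most 0.73, THY1 at most 3.7, PECAM1 at most 1.23 and CDH5 at most 5.8. The part of these markers in the depletion results was not tested. In a bulk library, fewer cells of a type and less RNA per cell cannot be told apart.

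Differences are limma log2 fold changes of log2(normalized reads + 1), with p-values adjusted over the 14800 tested genes by the Benjamini-Hochberg method. A gene is said to have risen or fallen where the adjusted p was under 0.05, and to have passed 2-fold where its change was also at least that large. The spread behind each p-value was pooled over the 4 groups of 2 libraries. It was also drawn towards that of tested genes with similar levels. It holds no variation between lines made with the same hairpin. With 1 line for each hairpin, depletion and other differences between the lines cannot be told apart. The plot of levels by library shows all 5 genes.

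**Figure D1:**
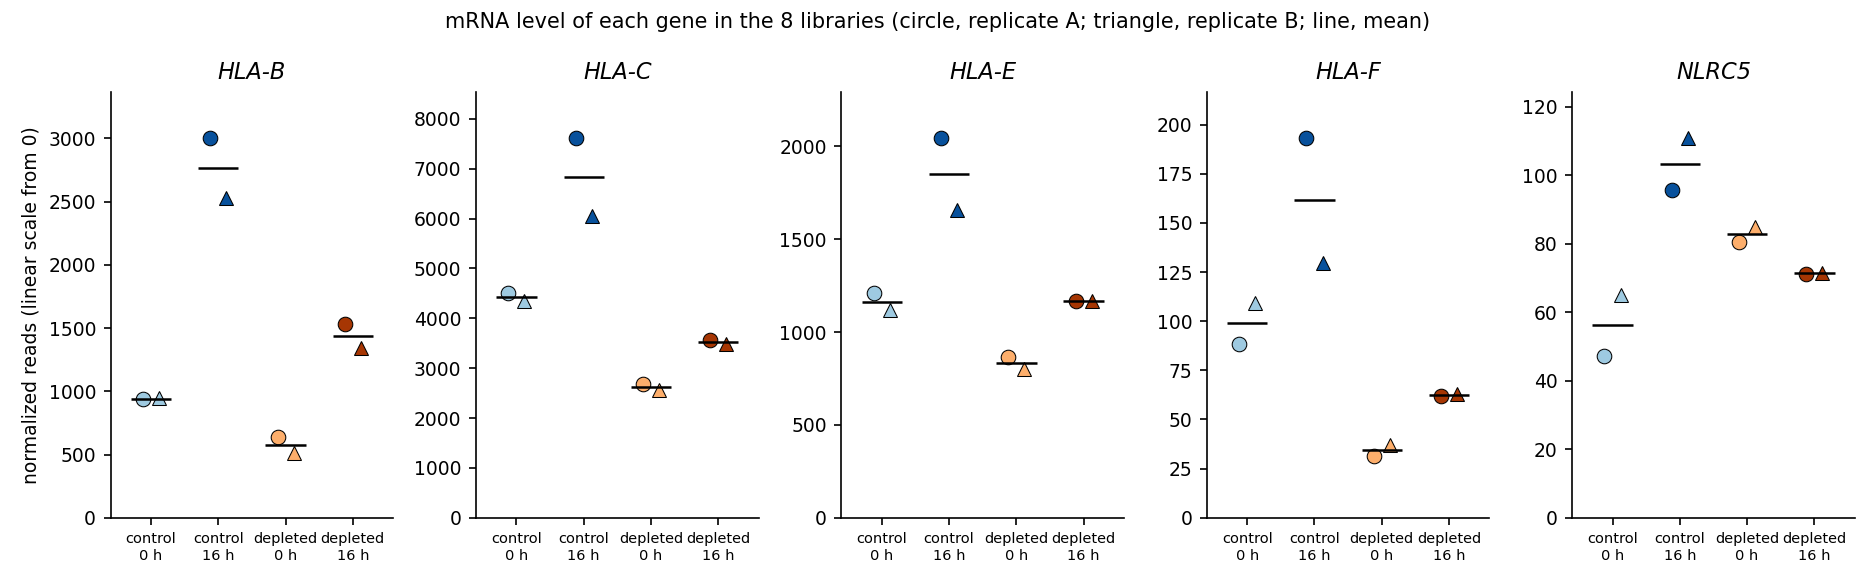
Normalized reads of HLA-B, HLA-C, HLA-E, HLA-F and NLRC5 (vertical axes, linear from 0) in the 8 libraries by group. Circles are replicate A, triangles replicate B and lines the group means of 2 libraries. The HLA genes are highest in control cells at 16 h and lowest in mutp53-depleted cells at 0 h, whereas NLRC5 is lowest in control cells at 0 h.

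NLRC5, the class I transactivator, stood at 47.2 and 65.1 normalized reads in the control libraries before TNF-α and at 95.7 and 111 after it. The mutp53-depleted libraries held 80.4 and 85.0 before TNF-α and 71.3 and 71.6 at 16 h. From low to high, the groups ran control 0 h, depleted 16 h, depleted 0 h and control 16 h. Neighbouring groups did not overlap, but the depleted groups did not differ past the threshold in the test given next. How many of all genes separate their groups as fully was not counted. The NLRC5 values rest on only 43 to 120 reads a library. NLRC5 thus went up with TNF-α in control cells and did not in the depleted cells, and depletion was accompanied by a higher level before TNF-α and a lower level after it.

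NLRC5 rose by 0.88 ± 0.20 (SE) on the log2 scale with TNF-α in control cells (1.84-fold, limma adjusted p = 0.003). In mutp53-depleted cells its change was -0.21 ± 0.20 (adjusted p = 0.50). The difference between these responses, the interaction term, was -1.09 ± 0.29 (adjusted p = 0.046). Depletion went with a rise of 0.57 ± 0.20 at 0 h (adjusted p = 0.025) and with a change of -0.52 ± 0.20 at 16 h (adjusted p = 0.038).

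The TNF-α rise of NLRC5 in control cells held in all 18 alternative settings, but the other calls were near the threshold. The rise at 0 h was 0.34 without control 0 h replicate A (adjusted p = 0.23), 0.61 without depleted 0 h replicate A (adjusted p = 0.069) and 0.53 without depleted 0 h replicate B (adjusted p = 0.12). The fall at 16 h missed the threshold in 9 of 18 settings, with adjusted p up to 0.19, among them the omission of any 1 of the 2 control 16 h and 4 depleted libraries. The interaction missed it in 11 of 17 settings, with adjusted p up to 0.20, among them the omission of any 1 library other than control 0 h replicate B. Its size stayed between -1.32 and -0.86 throughout.

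HLA-B, a classical heavy chain, stood at 939 and 947 normalized reads in the control libraries before TNF-α and at 3007 and 2532 after it. The mutp53-depleted libraries held 641 and 513 before TNF-α and 1533 and 1341 at 16 h. The depleted cells after TNF-α stood above the control cells before it and below the control cells after it. HLA-B rose by 1.55 ± 0.10 (SE) on the log2 scale with TNF-α in control cells (2.92-fold, limma adjusted p = 1.6e-09). In mutp53-depleted cells it rose by 1.32 ± 0.10 (adjusted p = 1.8e-08). Depletion went with a fall, by 0.72 at 0 h (adjusted p = 1e-05) and by 0.94 at 16 h (adjusted p = 3.7e-07) on the log2 scale. HLA-B was the one gene of the 5 whose TNF-α rise passed 2-fold, and it did so in both lines.

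HLA-C, the other classical chain followed here, stood at 4513 and 4339 normalized reads in the control libraries before TNF-α and at 7622 and 6045 after it. The mutp53-depleted libraries held 2680 and 2561 before TNF-α and 3558 and 3485 at 16 h. The depleted cells after TNF-α remained below the control cells that had received none. The TNF-α rise was 0.62 ± 0.09 (SE) on the log2 scale in control cells (1.53-fold, limma adjusted p = 2.3e-05) and 0.43 ± 0.09 in depleted cells (1.34-fold, adjusted p = 0.0011). Depletion went with a fall by 0.76 at 0 h (adjusted p = 7.3e-07) and by 0.95 at 16 h (adjusted p = 4.1e-08) on the log2 scale.

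HLA-E, the ligand of NKG2A, stood at 1208 and 1117 normalized reads in the control libraries before TNF-α and at 2047 and 1659 after it. The mutp53-depleted libraries held 867 and 799 before TNF-α and 1169 in both libraries at 16 h. Control cells without TNF-α and depleted cells with it thus overlapped. The TNF-α rise was 0.67 ± 0.09 (SE) on the log2 scale in control cells (1.59-fold, limma adjusted p = 1.5e-05) and 0.49 ± 0.09 in depleted cells (1.40-fold, adjusted p = 0.00044). Depletion went with a fall by 0.48 at 0 h (adjusted p = 0.00019) and by 0.66 at 16 h (adjusted p = 6.6e-06) on the log2 scale, the smallest fall among the 4 HLA genes at each time.

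HLA-F, with the lowest values of the HLA genes followed here, stood at 88.5 and 109 normalized reads in the control libraries before TNF-α and at 193 and 129 after it. The mutp53-depleted libraries held 31.5 and 37.0 before TNF-α and 62.0 and 62.9 at 16 h. All 4 depleted libraries were below all 4 control libraries, from 27 to 200 reads a library. The share of all genes that separate the lines this way was not counted. Depletion went with a fall by 1.50 ± 0.22 (SE) on the log2 scale at 0 h (2.82-fold, limma adjusted p = 1.3e-05) and by 1.33 ± 0.22 at 16 h (2.51-fold, adjusted p = 4.9e-05). The TNF-α rise was 0.68 ± 0.22 in control cells (1.60-fold, adjusted p = 0.026) and 0.85 ± 0.22 in depleted cells (1.81-fold, adjusted p = 0.0065). The rise in control cells rested on replicate A, since it was 0.39 without control 16 h replicate A (adjusted p = 0.29) and 0.53 without control 0 h replicate A (adjusted p = 0.18). In depleted cells it was 0.74 without depleted 0 h replicate A (adjusted p = 0.068).

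Counted together, 5 of 5 genes rose with TNF-α in control cells, where 11.1% of all tested genes rose and 15.2% fell, and 1 of 5 passed 2-fold upward against 2.97% of all genes. In mutp53-depleted cells 4 of 5 rose, where 9.8% of all genes rose and 16.9% fell, and 1 of 5 passed 2-fold upward against 1.86%. At 0 h, depletion was accompanied by a fall of the 4 HLA genes and a rise of NLRC5, among 25.2% of all genes that fell and 27.3% that rose. HLA-F was the 1 gene past 2-fold downward, against 9.55% of all genes. At 16 h all 5 were lower in depleted cells, where 26.5% of all genes were lower and 24.9% higher, and HLA-F alone passed 2-fold downward, against 10.2% of all genes. The interaction was past the threshold, on adjusted p alone, in 1 of 5 genes, NLRC5, in the direction in which 2.21% of all genes passed. In the other direction 0.655% of all genes passed. Leaving out 1 library changed some of these counts. With TNF-α in control cells 2 of 5 passed 2-fold upward without control 0 h replicate B. At 16 h, 3 of 5 passed 2-fold downward without control 16 h replicate B and 2 without depleted 16 h replicate A, and the interaction held 0 of 5 without any 1 library other than control 0 h replicate B.

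**Figure D2:**
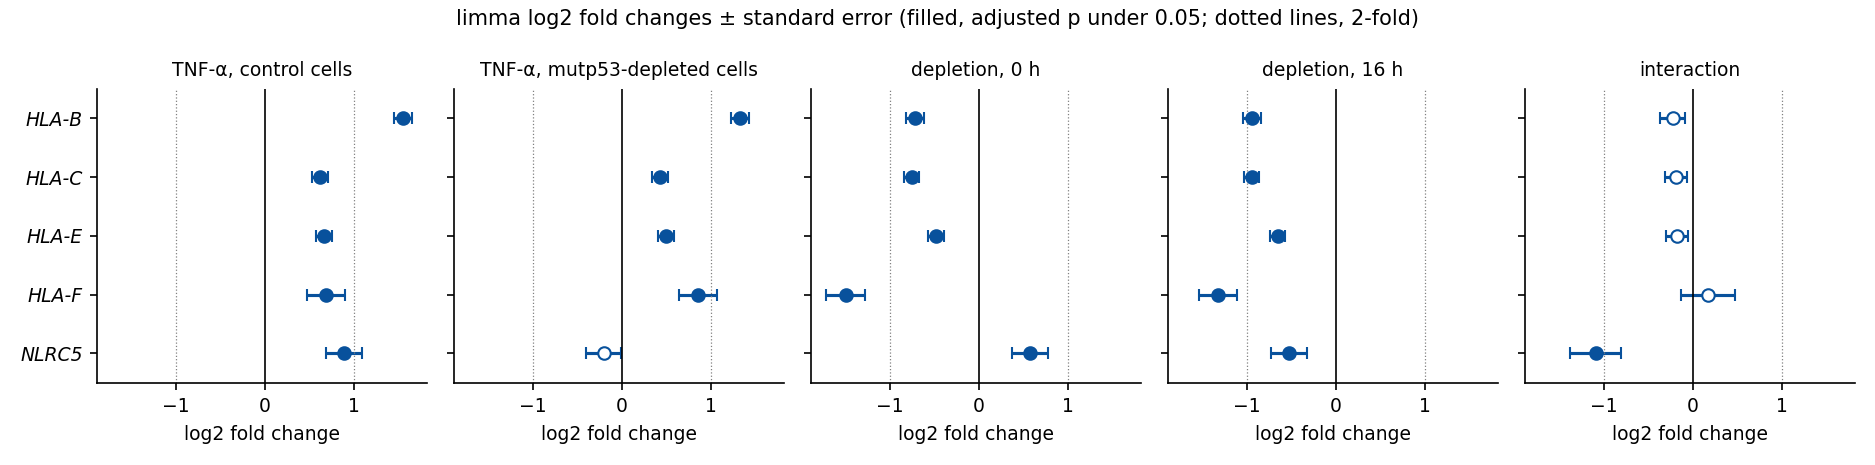
limma log2 fold change (horizontal axes) of each gene in the 4 comparisons and the interaction, with bars for the standard error. Filled points have an adjusted p under 0.05 and dotted lines mark 2-fold. The 4 HLA genes lie right of 0 with TNF-α in both lines and left of 0 with depletion, whereas NLRC5 changes side between lines and between times.

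For the HLA genes no interaction passed the threshold. The interaction was -0.23 ± 0.14 (SE) for HLA-B (limma adjusted p = 0.54), -0.19 ± 0.12 for HLA-C (adjusted p = 0.54), -0.18 ± 0.13 for HLA-E (adjusted p = 0.60) and 0.17 ± 0.31 for HLA-F (adjusted p = 0.87). Leaving out 1 library moved these values, from -0.39 to -0.07 for HLA-B, from -0.36 to -0.02 for HLA-C, from -0.33 to -0.03 for HLA-E and from -0.12 to 0.46 for HLA-F. The farthest values of HLA-B, HLA-C and HLA-E lay beyond the standard errors given, so that equal responses are not shown. For HLA-B, HLA-C and HLA-E, every TNF-α and depletion call held in all 18 alternative settings.

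Levels between genes were compared per kb of exon. HLA-C had the highest value, at 2822 ± 78.7 normalized reads per kb (SD, n = 2) in control cells at 0 h. It was followed by HLA-B at 603.7 ± 3.51, HLA-E at 438.2 ± 24.3, HLA-F at 78.2 ± 11.5 and NLRC5 at 8.41 ± 1.90. The order among the HLA genes depends on how reads matching several of them were counted, which the SD does not cover. In mutp53-depleted cells at 0 h the levels per kb were 1671 ± 53.4 for HLA-C, 369.2 ± 57.9 for HLA-B, 314.2 ± 18.1 for HLA-E, 27.1 ± 3.09 for HLA-F and 12.4 ± 0.487 for NLRC5. HLA-B exceeded HLA-E per kb in each of the 8 libraries, by as little as 1.09-fold in depleted 0 h replicate B and by as much as 2.59-fold in control 16 h replicate B. Without division by length that order turned round at 0 h, where the log2 ratio of HLA-B to HLA-E was -0.30 in control cells and -0.54 in depleted cells.

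The make-up of the class I mRNA held more HLA-B after TNF-α in both lines. HLA-B made up 15.0% and 15.6% of the summed level per kb of the 4 HLA genes in the control libraries before TNF-α and 16.6% and 14.3% in the depleted libraries. After TNF-α its share in the 4 libraries ran from 24.0% to 26.2%, both of them depleted libraries. The 4 libraries at 16 h therefore stood above the 4 at 0 h, while the lines overlapped at each time. The share of HLA-F was 1.65% to 2.23% in the control libraries and 1.01% to 1.40% in the depleted libraries. HLA-C made up the most in every library, between 60.7% and 71.9%. These shares leave out the other class I genes and rest on the counting of similar sequences described for the HLA genes.

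**Figure D3:**
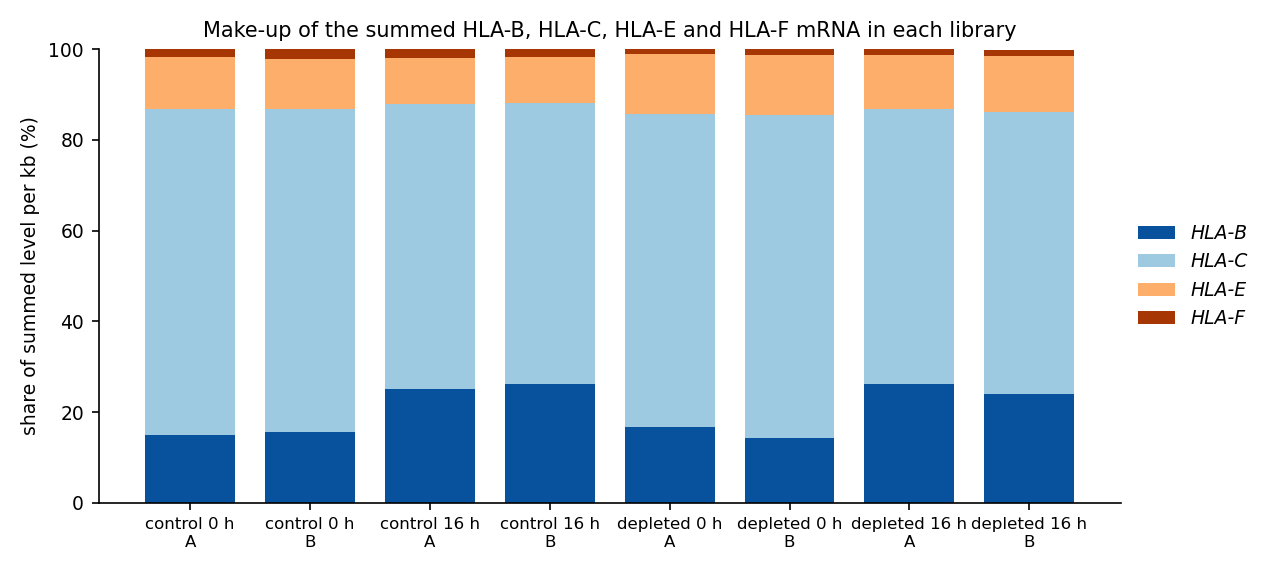
Share of HLA-B, HLA-C, HLA-E and HLA-F in their summed level per kb (vertical axis, percent) in each of the 8 libraries. The HLA-B segment spans 14.3% to 16.6% at 0 h and 24.0% to 26.2% at 16 h, in either line.

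B2M encodes the beta-2 microglobulin light chain that every class I heavy chain pairs with, and its level did not pass the test with depletion at 0 h. Control cells held 2914 ± 104 normalized reads of it (SD, n = 2) before TNF-α and 5658 ± 686 after it, and depleted cells 2640 ± 92.6 and 3983 ± 231. Its difference with depletion was -0.14 ± 0.08 (SE) at 0 h (limma adjusted p = 0.15) and -0.50 ± 0.08 at 16 h (adjusted p = 3.8e-05). The summed level per kb of the 4 HLA genes was 1.18 to 1.34 times that of B2M in the 4 control libraries and 0.873 to 0.917 times in the 4 depleted libraries. The lines did not overlap in this ratio.

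The other genes of class I assembly and peptide supply were read from a list of 16 partners, all of which were tested. With TNF-α, 12 of 16 rose and 0 fell in control cells, against 11.1% and 15.2% of all tested genes, with a median log2 fold change of 0.76 beside -0.05 for all genes. In depleted cells 12 of 16 rose and 0 fell, against 9.8% and 16.9%, with a median of 0.47 beside -0.06. PSMB9, a subunit of the immunoproteasome, rose by 1.76 in control cells (limma adjusted p = 4.8e-07) and by 0.93 in depleted cells (adjusted p = 0.00067). TAPBP, or tapasin, which holds class I chains at the peptide transporter, rose by 1.49 in control cells (adjusted p = 1.1e-10) and by 1.03 in depleted cells (adjusted p = 2e-08). TAP1, a subunit of that transporter, rose by 1.06 (adjusted p = 1.5e-06) and 0.85 (adjusted p = 2.4e-05).

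With depletion the partners moved in both directions. At 0 h, 4 of 16 rose and 7 fell, with a median of -0.15, and the 4 that rose are near the share of all genes, of which 27.3% rose and 25.2% fell. At 16 h 1 rose and 10 fell, against 24.9% and 26.5% of all genes, with a median of -0.37. TAP1 fell by 0.85 at 0 h (limma adjusted p = 7.1e-06) and by 1.05 at 16 h (adjusted p = 5.1e-07) on the log2 scale. TAPBP fell by 0.48 (adjusted p = 6.8e-05) and 0.94 (adjusted p = 2e-08). The immunoproteasome subunit PSMB9, on the other hand, rose by 0.76 at 0 h (adjusted p = 0.0015) and differed by -0.07 at 16 h (adjusted p = 0.77). PSME3, an activator of the nuclear proteasome, rose by 0.60 at 0 h (adjusted p = 3.6e-07) and by 0.65 at 16 h (adjusted p = 1.3e-07). In the interaction 2 of 16 partners passed, against 2.21% of all genes in that direction, both with a smaller rise in depleted cells. PSMB10, another catalytic subunit of the immunoproteasome, differed by -0.65 (adjusted p = 0.032) and TAPBP by -0.46 (adjusted p = 0.033).

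The factors that act on class I and NLRC5 promoters were read from a list of 19, all tested. Among the box-binding factors, the RFX subunits passed with TNF-α and the others did not. RFX5, a subunit of the RFX complex at the X1 box, rose by 0.44 in control cells (limma adjusted p = 0.0019) and changed by -0.12 in depleted cells (adjusted p = 0.37). RFXANK rose by 0.27 in control cells (adjusted p = 0.048), while RFXAP, the remaining subunit, fell by 0.96 in control cells (adjusted p = 0.0009) and by 0.79 in depleted cells (adjusted p = 0.0045). The Y box subunits NFYA, NFYB and NFYC and the X2 box factors CREB1 and ATF1 did not pass in either line, at -0.24 to 0.11.

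The signaling factors of the list moved more. RELB, a noncanonical NF-κB subunit, rose by 3.28 in control cells (limma adjusted p = 6.3e-13) and by 2.40 in depleted cells (adjusted p = 6.6e-11). NFKB2, the precursor of its partner p52, rose by 2.55 (adjusted p = 3.2e-14) and 1.63 (adjusted p = 3.2e-11). NFKB1 rose by 1.33 (adjusted p = 4.8e-10) and 0.88 (adjusted p = 1.8e-07), and RELA by 0.49 (adjusted p = 6.3e-05) and 0.42 (adjusted p = 0.00036). IRF1, an activator at interferon response elements, rose by 1.59 (adjusted p = 4e-10) and 1.06 (adjusted p = 1.2e-07). IRF2 rose by 1.05 in control cells (adjusted p = 1.1e-06) and changed by 0.20 in depleted cells (adjusted p = 0.20).

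Of the factors that carry interferon signals, STAT2 changed by 0.15 in control cells (limma adjusted p = 0.31). STAT2 fell by 0.43 on the log2 scale in depleted cells (adjusted p = 0.0035), and IRF9 was at 0.03 and 0.09 (adjusted p = 0.93 and 0.78). STAT3 rose by 0.60 (adjusted p = 1.4e-05) and 0.37 (adjusted p = 0.002). CIITA, the class II counterpart of NLRC5, rose by 2.62 (adjusted p = 0.0018) and 2.22 (adjusted p = 0.0066), with a wide standard error of 0.565 for each. In all, 10 of 19 factors rose and 1 fell in control cells, against 11.1% and 15.2% of all genes, and 7 rose and 2 fell in depleted cells, against 9.8% and 16.9%.

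With depletion at 0 h, 10 of the 19 factors rose and 1 fell, against 27.3% and 25.2% of all genes. At 16 h 6 rose and 5 fell, close to the 24.9% and 26.5% of all genes. NFYB rose by 0.98 at 0 h (limma adjusted p = 1.1e-06), STAT3 by 0.88 (adjusted p = 4.1e-08), ATF1 by 0.75 (adjusted p = 8.1e-07) and IRF2 by 0.66 (adjusted p = 7.4e-05). IRF1 rose by 0.53 (adjusted p = 0.00011), RFX5 by 0.58 (adjusted p = 4.8e-05), CREB1 by 0.49 (adjusted p = 0.00035), NFKB1 by 0.45, RELA by 0.34 and NFKB2 by 0.27. NFYA was the factor that fell, by 0.39 on the log2 scale (adjusted p = 0.0026). At 16 h RELB was the 1 factor past 2-fold downward, at -1.07 (adjusted p = 5.2e-07), followed by NFKB2 at -0.66 (adjusted p = 8.9e-07).

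In the interaction 7 of 19 factors passed, all with a smaller or more negative TNF-α response in depleted cells. Of all genes 2.21% passed in that direction and 0.655% in the other. The factors were NFKB2 at -0.93 (limma adjusted p = 6.7e-05), RELB at -0.89 (adjusted p = 0.0052), IRF2 at -0.84 (adjusted p = 0.0051), STAT2 at -0.58 (adjusted p = 0.031), RFX5 at -0.56 (adjusted p = 0.026), IRF1 at -0.53 (adjusted p = 0.038) and NFKB1 at -0.46 (adjusted p = 0.034). The 12 others did not pass, from -0.40 for CIITA to 0.17 for RFXAP.

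**Figure D4:**
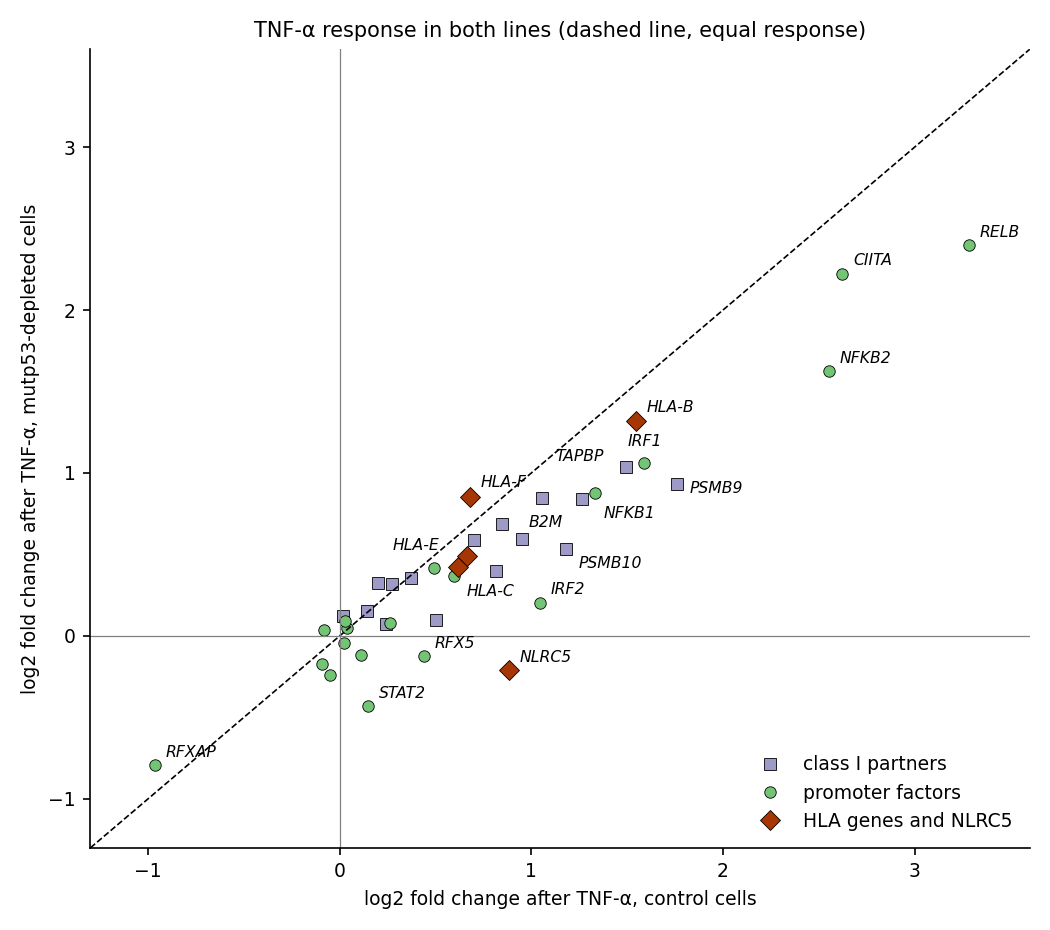
limma log2 fold change with TNF-α in mutp53-depleted cells (vertical axis) against control cells (horizontal axis) for the 4 HLA genes and NLRC5 (diamonds), 16 class I partners (squares) and 19 promoter factors (circles). NLRC5 lies below the dashed line of equal response, at 0.88 in control cells and -0.21 in depleted cells, and HLA-B lies near it at 1.55 and 1.32.

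For each of the 5 genes, tested genes with the most similar profiles over the 8 libraries were found by the root mean square difference of mean-centred log2 values, leaving out genes whose mean was under 10. The libraries share their groups, so Pearson's r is a description over 8 points. TAPBP was nearest to HLA-B (difference 0.138, r = 0.99), before NINJ1 (0.157, r = 0.99). HLA-C was nearest to C2CD2 (0.069, r = 0.99), RAB32 and SEMA4C. HLA-E was nearest to IER3 (0.069, r = 0.99), TMEM123 and CD59. HLA-F was nearest to IL27RA (0.129, r = 0.99), LAT and TNC. NLRC5 was nearest to SLC41A2 (0.152, r = 0.90), LOC101927151 and REL (0.17, r = 0.89), and these matches were looser than those of HLA-C and HLA-E.

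The 4 HLA genes lie within the major histocompatibility complex, and the genes between them had medians near 0. Between HLA-F and HLA-B, 39 tested genes other than class I genes had a median log2 fold change of 0.07 with depletion at 0 h. Of these 5 rose and 9 fell, against 27.3% and 25.2% of all tested genes. At 16 h their median was -0.09, where 4 rose and 9 fell, against 24.9% and 26.5%. With TNF-α their median was 0.02 in control cells, where 6 rose and 3 fell, against 11.1% and 15.2% of all genes. In depleted cells it was -0.08, where 5 rose and 5 fell, against 9.8% and 16.9%. The median depletion change of the 51 genes around each gene, itself included, was between -0.22 and 0.06 and was taken away from the depleted libraries as an alternative. The NLRC5 difference at 16 h then became -0.47 (limma adjusted p = 0.064), and no other depletion call of the 5 genes changed.

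**Figure D5:**
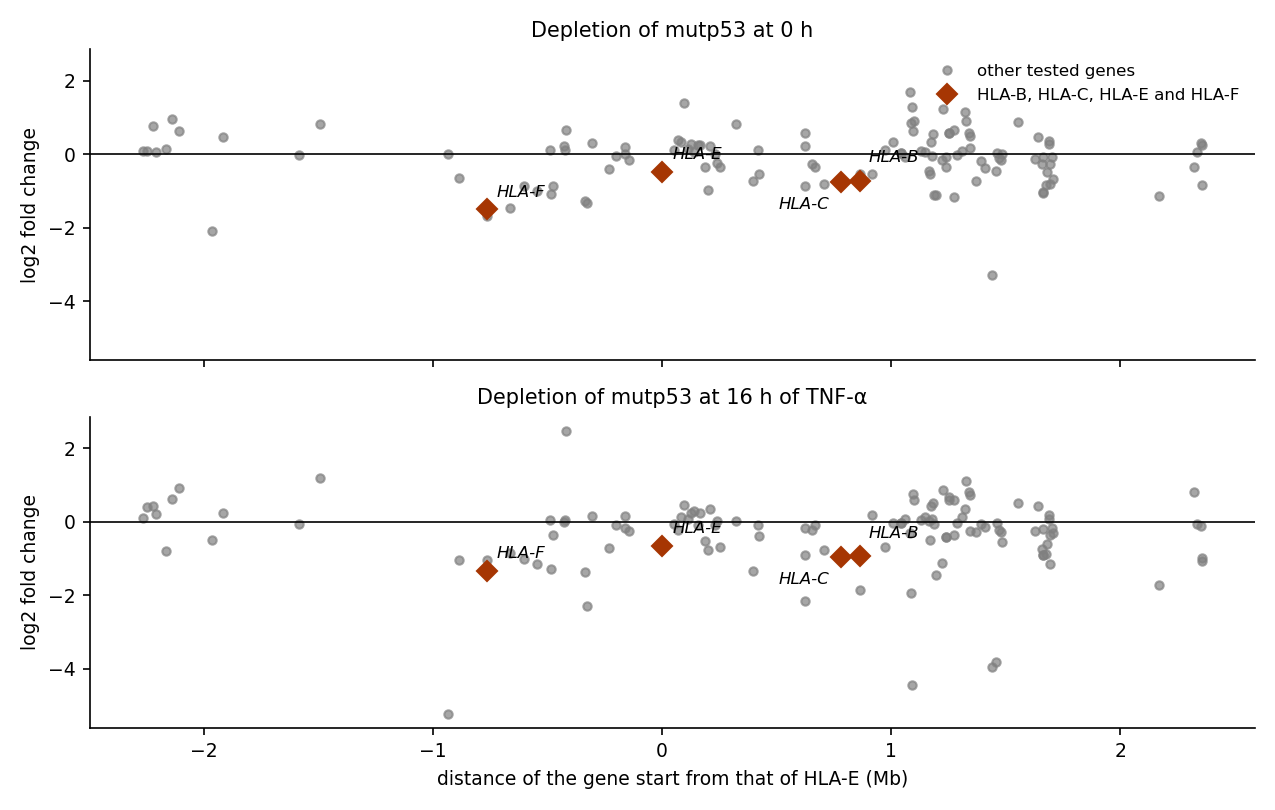
limma log2 fold change with depletion of mutp53 (vertical axes) at 0 h and at 16 h for tested genes around the HLA genes, by the distance of each gene start from that of HLA-E (horizontal axis, Mb). HLA-B, HLA-C, HLA-E and HLA-F (diamonds) lie between -1.50 and -0.48 at 0 h, whereas the 39 genes between HLA-F and HLA-B outside class I have a median of 0.07.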

How the data were processed

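The mRNA-seq table of SW480 cells was used. Per the labels and the study's methods, strand-specific dUTP libraries were made from poly(A) RNA, mapped with STAR and counted on exons with HOMER. The header names hg19, whereas the submitters' processing notes name hg38 for mapping. The signal values deposited by the authors are reads multiplied by 1 factor per library, and dividing by it gave whole reads for 100.0% of positive values. The authors also deposited log2 fold changes and p-values of their own comparisons, made with edgeR, which were not used. Replicate letters come from column names, and no per-sample column was left without a group (0).

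Genes averaging 2.5 normalized reads or more over the libraries were tested with limma 3.58.1 on log2(value + 1), with all 8 libraries in 1 fit of 4 groups, in R 4.3.3. Adjusted p is the Benjamini-Hochberg value. Partner, factor and other lists, and the 5 genes, were chosen with earlier results of these data known. From each list the text names the 2 largest changes past the test and 2-fold in each comparison and the promoter factors. A few more partners and class I related genes were named after their values were seen. Alternatives were median-ratio scaling, pseudocounts of 0.1 and 5, filters on the mean of 0 or 10, edgeR 4.0.16 and DESeq2 1.42.0 on recovered reads, a replicate block, neighbouring genes' median removed, and omission of each library. The fit was run on simulated data with changes of at least 2-fold in the control 16 h libraries only. Smaller changes and the interaction were not covered by it. Reads on genes were 74.5% to 79.5% of each library's total, replicates differed beyond counting error (chi-square per gene 2.14 to 4.11), and reads are not independent molecules. Certain items are not reported here. The ChIP-seq and GRO-seq samples were not analysed here.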

Additional observations from a re-analysis of the deposited data

Results flagged for a closer look

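These genes differed between the lines in their TNF-α response by limma's interaction term, with an adjusted p under 0.05. A negative value is a smaller or more negative response in mutp53-depleted cells, the direction in which 2.21% of all genes passed, and 0.655% passed in the other. NLRC5 differed by -1.09. Among the promoter factors, NFKB2 differed by -0.93, RELB by -0.89, IRF2 by -0.84, STAT2 by -0.58, RFX5 by -0.56, IRF1 by -0.53 and NFKB1 by -0.46. Among the class I partners, PSMB10 differed by -0.65 and TAPBP by -0.46. REL, similar in profile to NLRC5, differed by -0.83, and TMEM123, similar in profile to HLA-E, by -0.40. REL and TMEM123 were picked by their profiles over these same libraries, so their differences are not separate findings. CD74, the class II invariant chain, differed by -1.23, and NOD2, an NLR gene that senses bacterial cell wall fragments, by -1.26. MICA, a stress-induced ligand of the NKG2D receptor, differed by 0.71, the 1 value in the other direction. The cause of these differences was not tested.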

How the results depend on the processing

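Of the results recomputed under the alternatives, 491 values were unchanged, 27 lost significance, 17 moved and 3 reversed. Unchanged means a fold change with the same direction and side of the threshold, or the same count of genes. The filters, the replicate block and the omission of a library outside a comparison cannot move its fold change, only the standard error and adjusted p. The same holds for removal of the neighbouring genes' median where control cells alone are compared. The interaction of NLRC5 was -1.07 with median-ratio scaling (adjusted p = 0.053), -1.09 with no filter (0.094), -1.10 with a pseudocount of 0.1 (0.061) and -1.10 with DESeq2 (0.16), so that 0 of the 5 genes passed there, and -1.32 to -0.86 with 1 library left out, where 0 or 1 passed. At an unadjusted p under 0.05 the interaction held 2005 genes in limma, 1977 in edgeR's quasi-likelihood test and 1150 in DESeq2. The NLRC5 difference with depletion was 0.57 at 0 h with DESeq2 (0.098) and 0.34 to 0.80 with 1 library left out. At 16 h it was -0.52 with no filter (0.060), -0.53 with DESeq2 (0.12), -0.47 with the neighbouring genes' median removed (0.064) and -0.63 to -0.42 with 1 library left out. With 1 library left out, HLA-F ranged from 0.39 to 0.97 for TNF-α in control cells, from 0.74 to 0.97 in depleted cells and from -0.12 to 0.46 for the interaction, which reversed at -0.12. Counts past 2-fold were 1 to 2 (TNF-α, control) and 1 to 3 (depletion, 16 h) with 1 library left out, and 2 for TNF-α in depleted cells with the neighbouring genes' median removed, a step made in the depleted libraries alone. Without division by length, HLA-B over HLA-E was -0.30 in control and -0.54 in depleted cells at 0 h, reversed, and 0.58 and 0.29 at 16 h. The replicate letters are not said to pair the libraries (r of deviations from group means -0.04 to 0.12 over 6 pairs of groups), and the replicate block changed no call of the 5 genes. A fit that leaves a group with 1 library assumes that it varies like the others. The exact edgeR test has no interaction term. The reads behind NLRC5 and HLA-F limit the precision of both. Unless a value is given here, the cause was not tested.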

Other observations

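The interferon ligands looked at were IFNB1, IFNG, IFNL1, IFNL2, IFNL3, IFNE and IFNK. Of these 7, 5 were at 0 reads in every library, and the most in any library was 6 reads. All 6 receptor chains were tested. With TNF-α 4 rose and 1 fell in control cells, against 11.1% and 15.2% of all tested genes, and IFNGR1, a chain of the interferon gamma receptor, rose by 1.28 (limma adjusted p = 5.9e-06). With depletion 5 of 6 fell at 0 h, against 25.2% of all genes, and 6 of 6 at 16 h, against 26.5%, when IFNAR2, a chain of the type I interferon receptor, fell by 1.21 on the log2 scale (adjusted p = 1e-07).

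Of 12 class II genes only 5 were abundant enough to be tested. CD74 rose by 3.04 with TNF-α in control cells (limma adjusted p = 3.7e-09) and by 1.81 in depleted cells (adjusted p = 4.1e-06). HLA-DQB1 fell by 1.13 at 0 h (adjusted p = 0.0013) and by 1.72 at 16 h (adjusted p = 2.1e-05) on the log2 scale with depletion.

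Of 10 other NLR genes 6 were tested. The standard errors (SE) of NLRC3, NLRP3 and NLRP1 were wide, which limits how closely the sizes of their changes are known. With TNF-α in control cells NLRC3 fell by 2.92 ± 0.76 (SE) on the log2 scale (limma adjusted p = 0.0075). In depleted cells it differed by -1.83 ± 0.76 (adjusted p = 0.084). NLRP3, an inflammasome sensor, rose by 2.89 ± 0.47 in control cells (adjusted p = 0.00013) and by 1.96 ± 0.47 in depleted cells (adjusted p = 0.0043). With depletion NLRP3 rose by 3.72 ± 0.47 at 0 h (adjusted p = 2.7e-06) and by 2.79 ± 0.47 at 16 h (adjusted p = 7e-05). NLRP1, another inflammasome sensor, differed by 1.55 ± 0.67 at 0 h (adjusted p = 0.060) and rose by 3.20 ± 0.67 at 16 h (adjusted p = 0.00059). NOD2 rose by 1.35 with TNF-α in control cells (adjusted p = 5.5e-05) and changed by 0.09 in depleted cells (adjusted p = 0.78), and with depletion it rose by 1.40 at 0 h (adjusted p = 1.3e-05) and differed by 0.15 at 16 h (adjusted p = 0.58).

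Of 19 further class I related genes 18 were tested, and with depletion 5 rose and 7 fell at 0 h, against 27.3% and 25.2% of all genes, and 4 rose and 7 fell at 16 h, against 24.9% and 26.5%. PROCR, the endothelial protein C receptor, rose by 2.35 (limma adjusted p = 2.6e-07) and 2.04 (adjusted p = 1.5e-06). RAET1E, an NKG2D ligand, rose by 2.38 (adjusted p = 8.8e-05) and 1.78 (adjusted p = 0.0014). Among the genes that fell, HLA-G changed by -1.47 and -0.85, HLA-H by -0.87 and -1.025, and HLA-J by -1.10 and -1.285. Each of these passed the test at both times. HLA-L passed at 16 h alone, at -0.72 (adjusted p = 0.0052). The fall with depletion was thus not limited to the 4 HLA genes followed here, and such similar sequences may share reads. ULBP1, another NKG2D ligand, fell with TNF-α by 1.57 in control cells (adjusted p = 0.012) and by 1.78 in depleted cells (adjusted p = 0.0053) on the log2 scale.

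HLA-F-AS1, a transcript antisense to HLA-F, was looked at after its values were seen. It stood at 47.2 and 45.5 normalized reads in the control libraries before TNF-α and at 27.1 or just under in both after it. The depleted replicates A and B lay apart, at 22.1 and 8.23 at 0 h and at 21.0 and 7.40 at 16 h. The 4 control libraries stood above the 4 depleted ones, as for HLA-F. In control cells HLA-F-AS1 was lower at 16 h than at 0 h, where HLA-F was higher. No test is given for HLA-F-AS1, and how many genes separate the lines this way was not counted. Reads were counted by strand.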
